A study of Homo sapiens with 2 samples.

Results

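The genes described here encode 10 secreted carriers and protease inhibitors of hepatocytes: ALB, TTR, TF, AHSG, AMBP, A2M, FETUB, ITIH1, ITIH2 and ITIH3. They are a list of named genes, and all 10 were found by symbol among the 60623 gene entries. RNA sequencing was performed on 2 groups of HepG2 cells, which derive from a human liver carcinoma, with 1 library per group. Both groups carried a wild-type genotype label and were loaded for 24 h with 1 mM free fatty acids (FFA), oleic and palmitic acid in a 2:1 molar ratio bound to bovine serum albumin. One group was also given 9-cis-retinoic acid, here 9-cis-RA, at 10 μM for 24 h, an agonist of RXR and RAR. A library of cells without FFA was not analysed here, and HepG2 is a single tumor line that lacks part of normal hepatocyte physiology. The added bovine albumin is a protein present in both groups and is separate from the ALB transcript counted here.

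The liver secretes most of the protein of blood plasma. Albumin carries fatty acids, bilirubin and many drugs, transthyretin carries thyroxine and the retinol-binding protein complex, and transferrin carries iron. Other members restrain proteases: A2M traps them, and bikunin, which is cut from the AMBP precursor, is linked to the heavy chains made by the ITIH genes. Several of these genes are negative acute phase genes, whose liver output drops during inflammation.

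In total, genes received 60821539 fragments with FFA alone and 57669670 with FFA + 9-cis-RA, and mitochondrial genes took 10.4% and 9.96% of them. Counts were divided by median-of-ratios size factors, here called normalized counts. The log2 fold change compares FFA + 9-cis-RA with FFA after a pseudocount of 1, for genes whose counts in both libraries sum to 10 or more. Each has an exact 95% counting interval, which covers counting error only and compares these 2 libraries, not the conditions. With 1 library per group there was no replicate check and no test, and whether the libraries came from 1 culture or several is not given in the labels. In bulk RNA, fewer cells of a type and less RNA per cell cannot be told apart.

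The hepatocyte label was checked against 8 marker genes, all of which were counted, with a summed level of 14214 TPM (counts per exon length, scaled to the same sum in each library) with FFA alone and 12143 with FFA + 9-cis-RA. Of these, 4 were higher and 4 lower, near the 52.3% lower among all compared genes, with a median log2 fold change of -0.054. They ran from AFP at -0.99 to FGB at 0.84, with APOA1 at 0.039 and APOB at 0.050. The 8 include the members ALB and TTR. Without them 4 of 6 were higher and 2 lower, beside the same 52.3%, with a median of 0.037. Of 14 markers of other liver cells, PTPRC of leukocytes and LRAT of stellate cells had 0 counts in both libraries, where a count of 0 allows up to 3 counts. The 14 markers summed to 177 and 165 TPM, most of it from SOX9, which had 12132 and 11146 counts. Without SOX9 the other markers had 2009 and 1142 counts in all. The largest of these were ACTA2, with 1186 and 773 counts (log2 fold change -0.59), and LYVE1, with 609 and 223 (-1.42). Of the 10 markers compared, 9 were lower in the FFA + 9-cis-RA library, beside 52.3% of all compared genes. The median log2 fold change of these markers was -0.68. Their part in the results below was not tested.

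Stretches upstream of the RefSeq transcription start (GRCh38.p14) are shown for the members at both ends of the range of values below and for the other members with a motif match. RefSeq windows were matched for ALB, TF, AHSG, AMBP, FETUB, ITIH1 and ITIH3, and named without a sequence here are TTR, A2M and ITIH2. Each sequence reads 5′ to 3′ on the gene's own strand. For ALB, TF, AMBP, ITIH1 and ITIH3 the RefSeq start lies inside the wider gene span of the count file. Exons of the count file cover 2 bases of the ALB stretch, 13 of the TF stretch and none of the other stretches shown, and all 70 bases of the matching ITIH1 stretch, which is not shown. Capitals mark a match to a searched motif on either strand: GTTAAT (a short element of liver promoters), AGGTCA (the core repeat unit of nuclear receptor sites), CAAAGTCCA (an HNF4-type site) and TATAAA (the core promoter element bound by TBP). TGTTTAC and TTGCGCAA, of FOXA and C/EBP type, were searched too. The motifs share no matched bases in these windows.
ALB, chr4:73404187-73404256 (+): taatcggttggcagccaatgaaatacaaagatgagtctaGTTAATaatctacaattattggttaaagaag
AHSG, chr3:186612851-186612920 (+): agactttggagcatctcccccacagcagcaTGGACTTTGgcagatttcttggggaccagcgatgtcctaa
FETUB, chr3:186635899-186635968 (+): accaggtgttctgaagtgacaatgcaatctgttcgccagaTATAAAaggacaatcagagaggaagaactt
TF, chr3:133746311-133746340 (+): cacaaacacgggAGGTCAaagattgcgccc
AMBP, chr9:114078331-114078400 (-): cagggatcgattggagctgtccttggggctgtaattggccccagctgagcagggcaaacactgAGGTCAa
ITIH3, chr3:52794696-52794765 (+): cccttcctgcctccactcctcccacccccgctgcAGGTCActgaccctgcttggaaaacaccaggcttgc

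In the 250 bases upstream of the start, AGGTCA was found in 3 of the 7 member windows, those of TF, AMBP and ITIH3, against 12.1% of all 35116 RefSeq windows. GTTAAT was found in the ALB window alone, 61 bases before the start, against 6.23% of all windows. CAAAGTCCA was found in the AHSG window alone, read on the opposite strand and 179 bases before the start, against 0.325% of all. TATAAA was found in the FETUB window alone, 30 bases before the start, against 10.7% of all. TGTTTAC and TTGCGCAA, held by 2.98% and 0.131% of all windows, were in no member window. These are matches of letters in 1 short window per gene and say nothing of binding.

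Albumin transcripts were the most abundant of the group and were fewer in the FFA + 9-cis-RA library. ALB (ENSG00000163631) occupies positions 73397114 to 73421482 of chromosome 4. This gene had 186609 counts with FFA alone and 112866 with FFA + 9-cis-RA, or -0.70 on the log2 fold change scale (95% interval -0.71 to -0.69). Its share of all counts was 0.307% (exact Clopper-Pearson 95% interval 0.305 to 0.308) and 0.196% (0.195 to 0.197). Per length, it stood at 2592 and 1701 TPM, place 26 and place 37 among protein-coding genes. Among the 50 protein-coding genes of highest mean level per length, whose median log2 fold change was -0.11, 4 were below -0.5. ALB was one of them, and the genes with values nearest to it were PLA2G2A, a secreted phospholipase, at -0.54, SPP1, which encodes osteopontin, at -0.91, and AFP at -0.99.

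All 9 members with enough counts to compare were lower in the FFA + 9-cis-RA library, against 52.3% of the 20431 genes compared. The whole counting interval lay below 0 for each of the 9, against 25.7% of all compared genes, a share that grows with depth. Their median log2 fold change was -0.48, beside -0.020 over all compared genes. Of the 9, 4 (ALB, AHSG, FETUB and ITIH2) were below -0.5, against 14.3% of all compared genes, and none was above 0.5, against 9.03%. FETUB alone was below -1, against 4.9%. Since most members are abundant, the same was taken over the 8592 genes with at least 1000 mean normalized counts. Of the 6 members in that set, 6 were below 0 and 3 were below -0.5, against 48.5% and 3.6% of the set. The interval lay wholly below 0 for all 6, against 35.4%. Together the 10 members took 0.613% of all counts with FFA alone and 0.424% with FFA + 9-cis-RA.

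**Figure D1:**
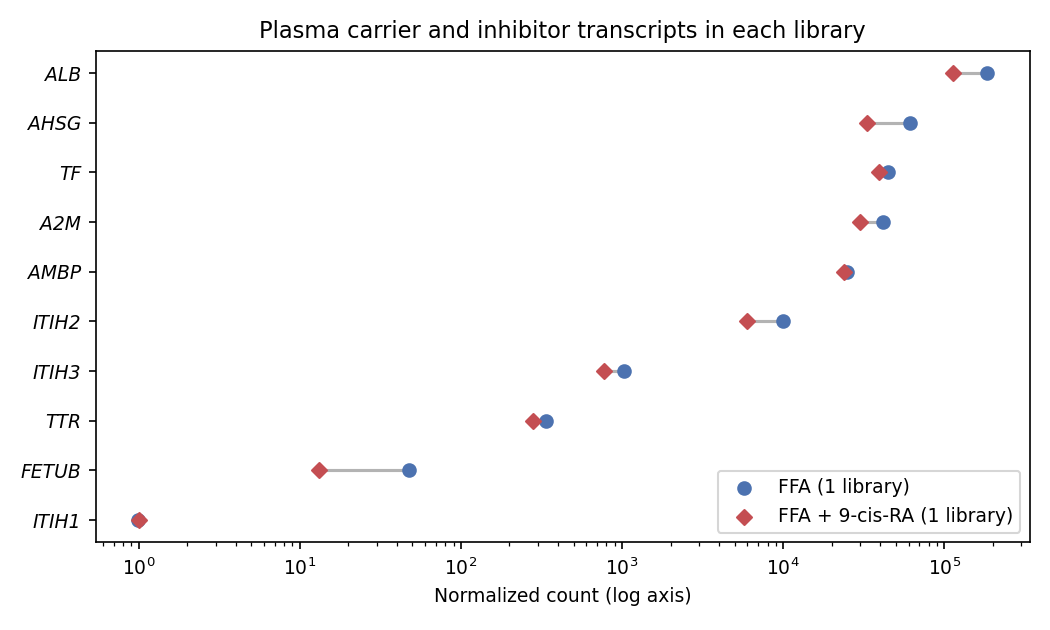
Normalized counts of the 10 genes (log axis) in the FFA library (circles) and the FFA + 9-cis-RA library (diamonds), 1 library each, joined by a line. The 9 compared genes sit lower in the FFA + 9-cis-RA library, with a wide gap for FETUB and AHSG and almost none for AMBP, and ITIH1 stands at 1 count in each.

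The other carriers spread over a wide range. AHSG, on chromosome 3 from 186613060 to 186621318, encodes fetuin-A, a mineral-binding protein that keeps calcium phosphate in solution. This gene had 62012 counts with FFA alone and 32791 with FFA + 9-cis-RA, or -0.89 on the log2 fold change scale (95% interval -0.91 to -0.87). The lower value is 46.1% below the other, and its level went from 1333 to 765 TPM, place 47 and place 101 among protein-coding genes. TF, the iron carrier gene on chromosome 3 from 133746040 to 133796641, had 44975 and 38699 counts. Its log2 fold change of -0.19 (95% interval -0.21 to -0.17) was much nearer to 0. Other genes on the same strand overlap 1.20% of its exonic bases, where reads are not counted. TTR, on chromosome 18 from 31557010 to 31599021, had only 341 and 278 counts, 6.78 and 6.0 TPM, although it is a major hepatocyte transcript. Its log2 fold change was -0.27 (95% interval -0.50 to -0.034), and no annotated gene overlaps its exons. RBP4, the retinol carrier that travels bound to transthyretin, had 17050 and 15747 counts and stood 82.1 and 93.0 times above TTR per length. The ratio of plain counts was 50 and 56.6. The per-length ratio depends on the length used, as the exons in the count file cover 2395 bases of TTR and its median RefSeq-matched mRNA has 957.

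The inhibitor genes also differed among themselves. AMBP, on chromosome 9 from 114060127 to 114078328, encodes the precursor of bikunin and of the lipocalin alpha-1-microglobulin. It had 25202 and 23557 counts, or -0.070 on the log2 fold change scale (95% interval -0.095 to -0.044), the value nearest to 0 among the compared members. Removing the trend on gene length put it at 0.0042, and in TPM it was higher with 9-cis-RA, at 633 and 642. Its direction is therefore not settled. A2M, on chromosome 12 from 9067664 to 9116229, had 42315 and 29855 counts, or -0.48 on the log2 fold change scale (95% interval -0.50 to -0.45). The antisense gene A2M-AS1 overlaps 8.79% of its exonic bases, and the counting separated the strands. FETUB, the neighbor of AHSG on chromosome 3 from 186635969 to 186653141, encodes fetuin-B, an inhibitor of astacin-type proteases. It had 48 and 13 counts, or -1.78 on the log2 fold change scale with a wide interval (-2.87 to -0.95) that reaches above -1.

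The heavy chains of inter-alpha-trypsin inhibitor, which become attached to hyaluronan, were present in very unequal amounts. ITIH2, on chromosome 10 from 7703316 to 7749520, had 10134 counts with FFA alone and 5903 with FFA + 9-cis-RA, or -0.75 on the log2 fold change scale (95% interval -0.80 to -0.71). ITIH3, on chromosome 3 from 52794768 to 52809009, had 1037 and 769 counts, or -0.40 on the log2 fold change scale (95% interval -0.54 to -0.27). ITIH1, on chromosome 3 from 52777595 to 52792068, had 1 count in each library and was not compared. Per exon length in the count file, ITIH2 stood 17.4 times above ITIH3 in the FFA library and 13.6 times above it in the FFA + 9-cis-RA library. These ratios depend on the length used. The exons cover 3331 bases of ITIH2 and 5921 of ITIH3, whereas their median RefSeq-matched mRNAs have 3193 and 3007. The ratio of plain counts was 9.77 and 7.68. The light chain gene AMBP stood 4.37 and 7.01 times above ITIH2 per length, so the heavy chain was the scarcer transcript in both libraries and more so with 9-cis-RA. The size of this gap depends on the length too, as the exons cover 1897 bases of AMBP and its median mRNA has 1434.

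**Figure D2:**
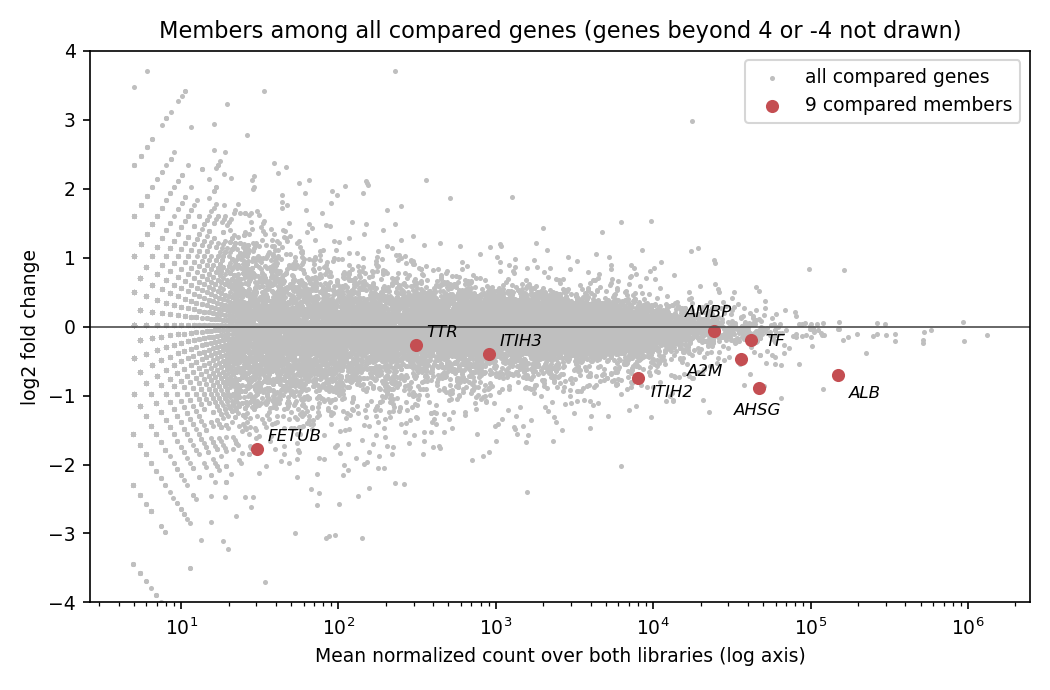
Log2 fold change of FFA + 9-cis-RA against FFA (vertical axis) over the mean normalized count (log axis) for the compared genes (gray) and the 9 compared members (red), with the few genes beyond the axis range not drawn. All 9 lie below the 0 line, from AMBP at -0.070 to FETUB at -1.78, and FETUB lies where counts are low and values scatter.

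The order of the members by TPM was ALB, AHSG, AMBP, A2M, ITIH2, TF, ITIH3, TTR, FETUB and ITIH1 in both libraries. Only ITIH3 and TTR in the FFA + 9-cis-RA library, at 6.72 and 6.0 TPM, had counting intervals that overlap. The place of TF depends on the length used, since the exons in the count file cover 26038 bases and the coding part 2094. Divided by coding length, TF stood at place 4 in both libraries instead of place 6.

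Ratios between members in the same library do not depend on the scaling. The count of AMBP relative to ALB went from 0.135 to 0.209, a log2 change of 0.63 (Woolf 95% interval 0.60 to 0.66, counting error only). TF relative to ALB went from 0.241 to 0.343, a log2 change of 0.51 (0.49 to 0.53), and A2M relative to ALB from 0.227 to 0.265, a log2 change of 0.22 (0.20 to 0.25). AHSG relative to ALB went the other way, from 0.332 to 0.291, a log2 change of -0.19 (-0.22 to -0.17). ITIH2 kept nearly the same count relative to ALB, 0.0543 and 0.0523 (log2 change -0.054, interval -0.10 to -0.0068). Within the group, ALB therefore made up 50.1% of the counts with FFA alone and 46.1% with FFA + 9-cis-RA, AHSG 16.6% and 13.4%, TF 12.1% and 15.8%, and AMBP 6.76% and 9.63%.

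The albumin family genes ALB, AFP and AFM lie together on chromosome 4, and all 3 were lower, beside 52.3% of all compared genes. AFP, the fetal counterpart of albumin and a marker of hepatoma cells, starts 9.66 kb after ALB and had 273242 and 134862 counts. Its log2 fold change was -0.99 (95% interval -1.0 to -0.98), and the count of AFP relative to ALB went from 1.46 to 1.19, a log2 change of -0.29 (-0.31 to -0.28). AFM, which encodes the vitamin E-binding protein afamin, had 33 and 10 counts and a log2 fold change of -1.60 (-2.88 to -0.64). GC, the gene of vitamin D-binding protein, lies apart from these on chromosome 4, from 71741696 to 71804041, and had 0 counts in both libraries. The nearest counted gene on the other side of ALB, ANKRD17-DT, had 7 and 12 counts, and its interval (-0.66 to 2.39) included 0.

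At other member loci the neighbors had values on both sides of 0. ITIH5 lies 36.3 kb before ITIH2 and had 3134 and 1859 counts, or -0.73 on the log2 fold change scale beside -0.75 for ITIH2, whereas KIN on the other side, a nuclear protein gene, had -0.24. The neighbors of AHSG and FETUB were DNAJB11, an ER chaperone gene, at 0.12, and HRG, with 7 counts in each library. KNG1, the kininogen gene and a relative of the fetuins, had 79 and 103 counts, and a log2 fold change of 0.41 whose interval (-0.027 to 0.85) included 0. NEK4, the neighbor of ITIH1, had a log2 fold change of 0.26, and DSG2 and B4GALT6 around TTR 0.072 and 0.59. TOPBP1, 83.7 kb before TF, stood at 0.010. SRPRB, with 6407 and 6494 counts, overlaps exons of TF and was therefore not taken as a neighbor. KIF12, 7.80 kb from AMBP, had 412 and 179 counts, or -1.17 on the log2 fold change scale, far from the -0.070 of AMBP. ZNF618 on the other side of AMBP, RAB6B after TF, and LINC00612 and MIR1244-3 around A2M had at most 32 counts in a library and intervals that included 0.

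Relatives of A2M lay on both sides of 0, the compared relative of TF was near 0, and most relatives of AMBP were lower. Of 7 compared genes of the alpha-2-macroglobulin family, 5 were lower and 2 were higher, beside 52.3% lower among all compared genes. A2M at -0.48 was the lowest and C3, the central complement protein, at 0.24 the highest. C4B stood at -0.32 and C4A at -0.027, but these genes are near-identical, and reads shared by both are not counted. C5 was at -0.26, and CD109 at -0.15 had an interval that included 0. PZP and A2ML1 had 0 counts in both libraries. MELTF, a relative of transferrin, had a log2 fold change of -0.0083 (-0.12 to 0.10), and LTF had 0 and 2 counts. Of 9 compared lipocalin genes other than AMBP, 6 were lower and 3 higher, beside the same 52.3%. The whole counting interval lay below 0 for 6 of the 9, against 25.7% of all compared genes, and above 0 for 0. C8G, a complement subunit, stood at -0.87, PAEP at -0.62 and LCN2 at -0.41, and LCN12 at 0.012 and APOM at 0.038 had intervals that included 0. PTGDS had the highest value but only 4 and 6 counts. ITIH4 had 9 and 3 counts, too few to show a difference, and ITIH6 had 1 and 0.

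**Figure D3:**
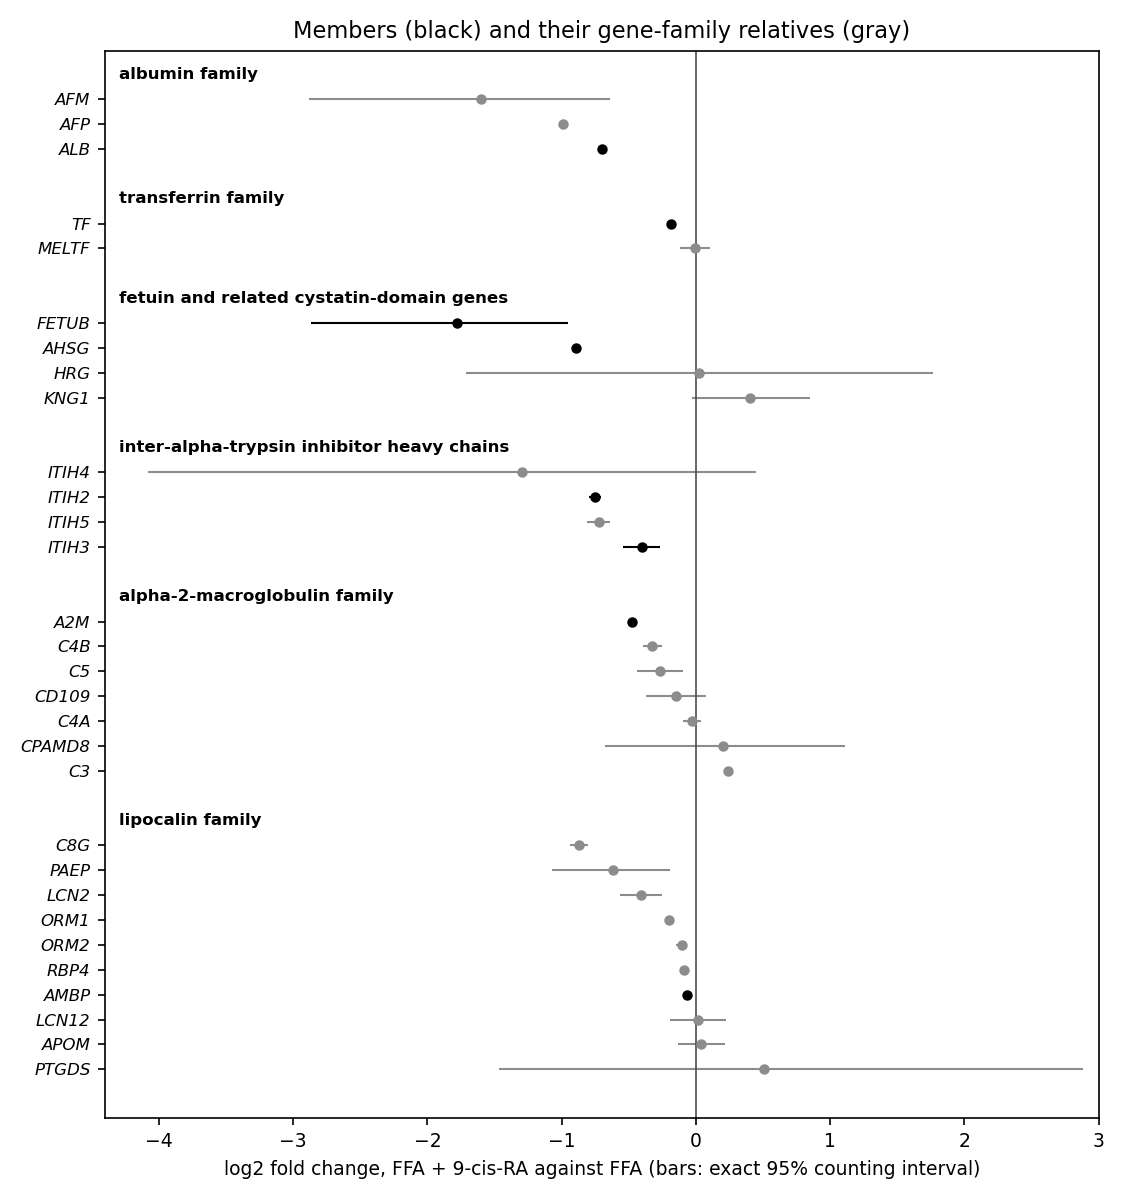
Log2 fold change (points) with exact 95% counting intervals (bars) for the compared members (black) and their family relatives (gray), by gene family. The compared albumin genes and ITIH2, ITIH3 and ITIH5 lie left of 0, KNG1 and C3 lie right of it, and intervals are wide where counts are few.

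Of 24 other plasma carriers and binding proteins, 21 were compared, 16 were lower and 5 higher, beside 52.3% lower among all compared genes, and the median was -0.27. Below -1 were 4 of the 21, beside 4.9% of all compared genes: SERPINA7, SELENOP, APOH and the low-count AFM. SERPINA7, the thyroxine-binding globulin gene, had 5791 and 2311 counts and a log2 fold change of -1.30. SELENOP, the selenium carrier gene, stood at -1.07, and APOH, a phospholipid-binding glycoprotein gene, also at -1.07. The highest values with a normalized count of 100 or more were near 0, with ORM2 at -0.11, RBP4 at -0.087 and APOM at 0.038. Above 0.5 were 2 of the 21, near the 9.03% of all compared genes. Both had fewer counts and were named after their values were seen. IGFBP2, an IGF-binding protein gene, had 55 and 87 counts and a log2 fold change of 0.68 (0.19 to 1.20), and CP, the ceruloplasmin gene, had 32 and 50 counts and 0.65 (0.0028 to 1.36). ORM2 has a near-identical copy, ORM1, and reads shared by both are not counted.

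The other plasma protease inhibitors were split. Of 17 compared, 9 were higher and 8 lower, beside 52.3% lower among all compared genes, with a median of 0.034. TFPI, an inhibitor of the start of coagulation, had 10122 and 2454 counts, or -2.02 on the log2 fold change scale (-2.08 to -1.95). SERPIND1, heparin cofactor II, stood at -1.0 and SERPINA10 at -0.61, whereas SERPINA5, the protein C inhibitor gene, stood at 0.54 and TIMP1 at 0.46.

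The acute phase lists overlap with the members. All 8 compared negative acute phase genes were lower, beside 52.3% of all compared genes, with a median of -0.48, but 5 of them are members. The other 3 were SERPINA7 at -1.30, SERPINA6, the cortisol carrier gene, at -0.13, and RBP4 at -0.087. Of 13 compared positive acute phase genes, 8 were lower and 5 higher, near the 52.3% lower among all compared genes, with a median of -0.15. The fibrinogen genes FGA, FGG and FGB stood at 1.53, 1.14 and 0.84, while HP, the haptoglobin gene, stood at -0.85 and ORM1 at -0.20. ITIH3, the member among the positive acute phase genes, stood at -0.40.

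**Figure D4:**
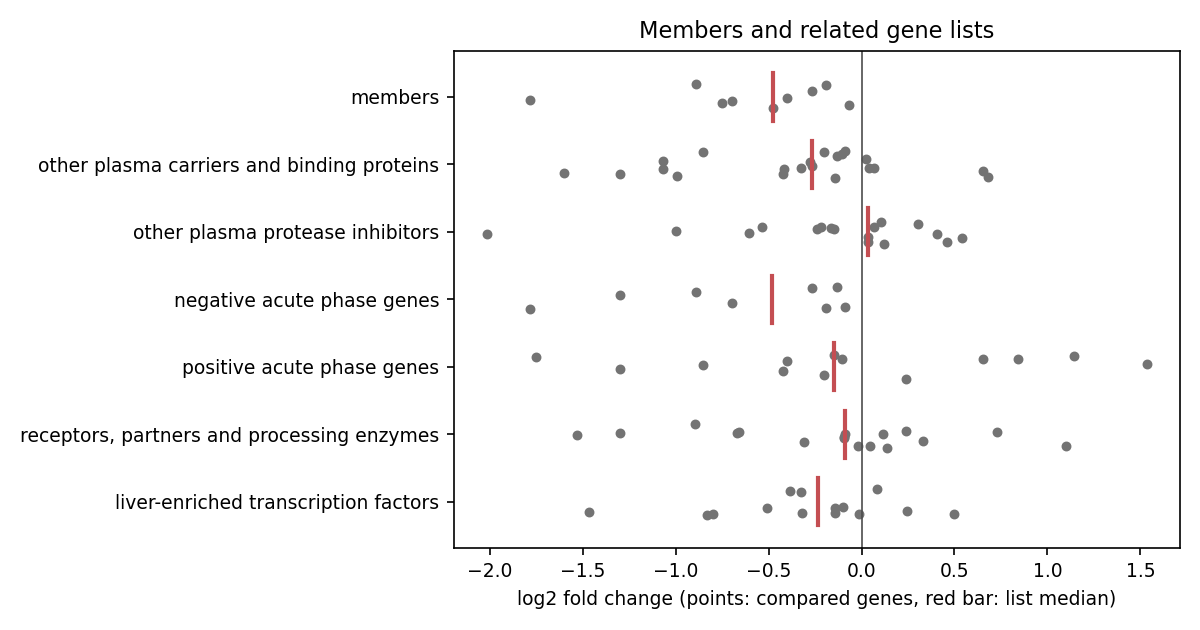
Log2 fold change of each compared gene (points) and the list median (red bar) for the members and 6 related lists. The members and the negative acute phase genes have medians of -0.48, and the other plasma protease inhibitors have a median of 0.034.

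Among 20 receptors, partners and processing enzymes, 17 were compared, 7 higher and 10 lower, with a median of -0.087. Of all compared genes, 52.3% were lower. FURIN, the protease that cuts the propeptide from proalbumin, had 11177 and 23494 counts, or 1.10 on the log2 fold change scale (1.07 to 1.13), while PCSK6 stood at 0.33 and PCSK5 at -0.67. The transferrin receptor genes went apart: TFRC had 29158 and 33821 counts, or 0.24 on the log2 fold change scale, and TFR2, the iron-sensing receptor gene, had 2139 and 1126 counts, or -0.90 on that scale. MEP1A, a meprin subunit and a target of fetuin-B, had 396 and 134 counts and a log2 fold change of -1.53.

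Of 14 liver-enriched transcription factor genes, 11 were lower and 3 higher, beside 52.3% lower among all compared genes, with a median of -0.23. PROX1, a homeobox regulator of hepatocyte fate, stood at -1.46, CEBPD at -0.83 and FOXA3 at -0.80, whereas CEBPA stood at 0.083, CEBPB at 0.24 and DBP, a clock-controlled activator of the albumin promoter, at 0.50. HNF4A, named after its value was seen, stood at -0.14.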

How the data were processed

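Poly(A) RNA of HepG2 cells was sequenced with stranded libraries. Each gene's values were deposited by the authors as unnormalized fragment counts from featureCounts version 2.0.1, which, per the file headers, counted pairs with both ends mapped and a checked fragment length on the reverse strand (strand setting 2), leaving out multi-mapped reads and those assigned to more than 1 gene. The build was GRCh38. The aligner and annotation release are not given in the sources used here.

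Symbols were matched by gene identifier for 60295 entries, and gene types and coding lengths came from GENCODE release 29. Scaling used size factors of DESeq2 version 1.42.0, and TMM and upper-quartile factors with edgeR version 4.0.16 in R 4.3.3. No model was fitted, and no p-value is given. TPM used the exon length in the count file. Python 3.11.15, scipy 1.17.1 and statsmodels 0.14.6 gave intervals and trends (loess span 0.3). The main size factors, fold changes and intervals were tested on simulated data, and the trends were not. Totals were 60821539 and 57669670 counts.

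The members and the 14 lists were chosen with earlier results of these data known. Named were all members, every gene with at least 10 counts in lists of up to 6, in longer lists the 3 genes at each end among those reaching 100 normalized counts, the 3 abundant genes nearest to ALB, and the counted neighbors of members. Alternatives covered scaling, pseudocount, count minimum, trends and gene length.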

Additional observations from a re-analysis of the deposited data

How the results depend on the processing

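With 1 library per group, no replicate could be left out. No paired analysis was possible because each group has 1 library. All 9 compared members stayed below 0 under every scaling, pseudocount and trend alternative, except AMBP, which was at 0.0042 with the trend on gene length removed. The TPM scale was not among these alternatives, and on it AMBP was higher with 9-cis-RA, at 633 and 642. Of 72 member values under an alternative, 18 kept their sign but lay outside their counting interval, and 1 reversed. ALB ranged from -0.70 to -0.62. The number of members below -0.5 was 5 with the trend on gene length removed, where A2M stood at -0.51. The member median was -0.43 with total-count scaling, -0.43 with the trend on mean expression removed, -0.51 with the trend on gene length removed and -0.44 without a count minimum, which adds ITIH1. With the whole counting interval past the threshold, 0 members were below -1, as FETUB has few counts. Without mitochondrially encoded genes in the total, the members took 0.684% and 0.471% of counts and ALB 0.343% and 0.217%. Of the lengths chosen after seeing the data, the coding part moved TF above A2M and ITIH2, and both it and the mRNAs matched to RefSeq put TTR above ITIH3. Depth limits FETUB and ITIH1.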

Other observations

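HRG-AS1, a long noncoding RNA gene on the strand opposite to FETUB, overlaps 4.15% of the exonic bases of FETUB. It had 33 counts with FFA alone and 6 with FFA + 9-cis-RA, or -2.25 on the log2 fold change scale (95% interval -3.98 to -1.16). AHSG, FETUB and HRG-AS1 were each lower in the FFA + 9-cis-RA library, FETUB and HRG-AS1 with few counts. Of the other genes named at this locus, HRG had 7 counts in each library, KNG1 stood at 0.41 and DNAJB11 at 0.12. A2M-AS1, opposite to A2M, had 176 and 211 counts and a log2 fold change of 0.29 (95% interval -0.0062 to 0.59), which included 0.

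Of the asialoglycoprotein receptor genes, whose products clear desialylated plasma proteins, ASGR1 had 33181 and 26243 counts and ASGR2 had 25288 and 15722. Their log2 fold changes were -0.31 (95% interval -0.33 to -0.29) and -0.66 (95% interval -0.69 to -0.63). FCGRT, which encodes the receptor that returns albumin to the circulation, had 6933 and 6361 counts and a log2 fold change of -0.097 (95% interval -0.15 to -0.047). These genes were named after their values were seen.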
